A study of Mus musculus with 79 samples.

Results

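The 5 genes described here, Plcb1, Spon2, Ccdc129, Serpinb10 and Gm9733, were drawn from the 31350 gene rows of a mouse lung array study because their levels were among the most reduced in mice that breathed cigarette smoke. They were chosen by symbol with earlier results of these data in view, so the comparison of smoke with sham exposure is given as a description, without a test, and tests are kept for genotype, sex and the terms in which exposure acts together with either. Each gene was read from 1 row of the table: NM_001145830 for Plcb1, NM_133903 for Spon2, NM_001081665 for Ccdc129, which RefSeq now names Itprid1, NM_001160307 for Serpinb10 and NM_001076679 for Gm9733. No other row of the table carried any of the 5 symbols.

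Total RNA of the right lung was hybridised to Affymetrix mouse gene arrays from each of 79 mice, which fell into 16 groups with 4 to 6 animals apiece. WT mice and their βENaC littermates, both on a C57BL/6J background and 5 to 7 weeks old, were male or female and were exposed either to smoke from 6 filterless 3R4F reference cigarettes a day or to room air in the same chamber (sham). βENaC mice carry a transgene that overexpresses Scnn1b, the β subunit of the epithelial sodium channel, in the airway epithelium. Exposure lasted 1 day (20 smoke-exposed and 20 sham-exposed mice) or 5 consecutive days (19 and 20), and lungs were taken 4 hours after the final exposure. Scnn1b averaged 8.98 ± 0.21 (SD, n = 40) in the mice labelled WT and 11.69 ± 0.10 (n = 39) in those labelled βENaC, and these ranges did not overlap, although the source text of 13 WT mice names the other genotype. All levels are deposited log2 intensities, so a difference of 1 is a 2-fold difference, and arrays correlated at 0.965 to 0.995 with each other. Since arrays carry no counts, the number of mice sets the precision. Arrays of 4 mice stood apart, with a median correlation with the other arrays of 0.978 to 0.983 against 0.987 to 0.992 for the rest, and calls that they change are given with and without them: a βENaC sham-exposed male at 1 day (replicate 1), a βENaC smoke-exposed female at 5 days (replicate 3), a βENaC sham-exposed male at 5 days (replicate 3) and a WT smoke-exposed female at 5 days (replicate 2).

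The 5 genes do not form one family. Plcb1 encodes phospholipase C β1, which Gq-coupled receptors switch on to split a membrane lipid into inositol trisphosphate (IP3) and diacylglycerol, the messengers that release calcium and activate protein kinase C. Spon2 (spondin 2, or mindin) is a secreted matrix protein that binds microbial surface molecules and leukocyte integrins. Ccdc129, as its current name ITPR interacting domain containing 1 records, is related to proteins that bind the IP3 receptor. Serpinb10 belongs to the clade B serpins, intracellular protease inhibitors, and was first described in bone marrow cells. Gm9733 is a predicted gene that lies beside the signal-regulatory protein genes Sirpb1a, Sirpb1b, Sirpb1c and Gm5150 in the RefSeq gene table; SIRPβ proteins are activating receptors of myeloid cells that signal through the adaptor encoded by Tyrobp.

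RefSeq sequence around the transcription start (GRCm38.p6) was at hand for 3 of the 5 genes and is shown because these are genes whose RNA was lower after smoke and whose start regions differ in make-up. The windows run from upstream of the start to shortly after it, on the plus strand: chr2:134785914-134786213 for Plcb1, chr6:55836768-55837067 for Ccdc129 (Itprid1) and chr1:107528753-107529052 for Serpinb10. Capitals mark matches, on either strand, to 5 letter patterns searched: GCGTG (the core bound by the aryl hydrocarbon receptor), TGACNNNGC (antioxidant response element), CACGTG (E-box), GAGGAAG (PU.1 core) and TGAGTCA (AP-1).
Plcb1: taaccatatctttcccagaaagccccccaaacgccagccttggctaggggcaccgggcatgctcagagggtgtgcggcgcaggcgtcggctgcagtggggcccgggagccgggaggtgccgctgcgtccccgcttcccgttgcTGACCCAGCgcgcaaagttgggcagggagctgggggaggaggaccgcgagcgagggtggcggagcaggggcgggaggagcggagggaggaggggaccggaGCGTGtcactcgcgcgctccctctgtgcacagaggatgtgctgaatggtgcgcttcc
Ccdc129: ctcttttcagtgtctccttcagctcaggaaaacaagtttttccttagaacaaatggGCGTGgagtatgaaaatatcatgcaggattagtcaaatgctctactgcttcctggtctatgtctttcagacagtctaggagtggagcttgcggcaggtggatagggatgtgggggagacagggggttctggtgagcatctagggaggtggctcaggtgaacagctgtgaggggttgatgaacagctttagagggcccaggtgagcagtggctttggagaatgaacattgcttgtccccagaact
Serpinb10: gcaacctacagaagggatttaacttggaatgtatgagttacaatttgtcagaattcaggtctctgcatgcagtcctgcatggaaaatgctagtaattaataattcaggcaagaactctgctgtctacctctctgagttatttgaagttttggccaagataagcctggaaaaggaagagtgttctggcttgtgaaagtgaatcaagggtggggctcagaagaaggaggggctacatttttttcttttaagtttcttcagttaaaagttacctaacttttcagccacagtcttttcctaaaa
The Plcb1 window had a GC content of 69.7% and 26 CpG, and held GCGTG at position -7 from the start and a TGACNNNGC match (TGACCCAGC) at -107. The Ccdc129 window had 49.7% GC and 2 CpG, with GCGTG at -194. The Serpinb10 window had 39.3% GC, no CpG and none of the 5 patterns. The median over 32851 such windows was 52.7% GC and 7 CpG. GCGTG stood in 32.4% of all windows and TGACNNNGC in 12.4%, so neither match is rare, and the E-box, PU.1 and AP-1 letters, found in 7.15%, 13.6% and 5.2% of them, were in none of the 3.

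The first question was how the 5 genes stood in smoke-exposed against sham-exposed lungs. For each duration an additive linear model of exposure, genotype and sex was fitted across all genes, and the exposure coefficient below is the log2 level in smoke minus sham. With an adjusted p below 0.05 and a fold of at least 1.3 as thresholds, 1.08% of all genes differed at 1 day and 1.16% at 5 days; 0.593% and 0.577% were lower with smoke, 0.159% at both durations. With the adjusted p alone 9.45% and 6.53% passed. Since the 5 genes were picked on this contrast, their places in it are given below as a description only and are evidence of nothing. Whole lung RNA cannot tell fewer cells of a type from less RNA per cell.

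Plcb1 was lower after both durations, with little overlap between mice. In the 1-day sham-exposed mice its lowest, median and highest levels were 7.74, 8.25 and 8.51, and in the smoke-exposed mice 7.17, 7.49 and 7.99. All 20 smoke-exposed mice lay below the sham median, and 18 lay below the lowest sham-exposed mouse. At 5 days the sham levels ran from 7.77 through a median of 8.22 to 8.78 and the smoke levels from 6.87 through 7.31 to 7.94, and 19 of the 20 sham-exposed mice were above every smoke-exposed mouse. The coefficient was -0.74 (SE 0.066) at 1 day and -0.92 (SE 0.088) at 5 days, that is 1.67-fold and 1.90-fold lower.

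Spon2 differed less at 1 day than at 5 days. Its 1-day levels were 5.20, 6.13 and 7.25 (lowest, median, highest) in sham-exposed mice and 4.58, 5.78 and 6.41 in smoke-exposed mice. Of 20 smoke-exposed mice 17 lay below the sham median, but only 3 were below the lowest sham-exposed mouse. At 5 days sham-exposed mice had 5.79, 6.34 and 7.27 and smoke-exposed mice 4.27, 5.28 and 5.93, and 18 of 19 smoke-exposed mice were below the lowest sham-exposed mouse. The 5-day groups were thus nearly separate while the 1-day groups overlapped over most of their range. The coefficient went from -0.46 (SE 0.14, 1.38-fold lower) to -1.22 (SE 0.13, 2.32-fold lower).

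Ccdc129 showed the opposite course. At 1 day its levels in sham-exposed mice were 5.08, 6.30 and 6.90, and in smoke-exposed mice 4.50, 5.22 and 5.58; 19 of 20 sham-exposed mice were above all smoke-exposed mice, the exception being the βENaC male whose array stood apart. At 5 days sham-exposed mice had 5.09, 6.55 and 7.01 and smoke-exposed mice 5.18, 6.24 and 6.55. Of 19 smoke-exposed mice 18 lay below the sham median. None was below the lowest sham-exposed mouse, a βENaC male (replicate 3) whose array also stood apart. Within WT mice at 5 days smoke minus sham was -0.18 (SE 0.055) in females and -0.55 (SE 0.088) in males. Within βENaC mice it was 0.05 (SE 0.24) and -0.23 (SE 0.23). The coefficient was -1.15 (SE 0.10, 2.22-fold lower), the most negative of all 31350 genes, at 1 day, and -0.22 (SE 0.088, 1.17-fold lower), under the fold threshold, at 5 days. The name "strongly smoke-repressed" therefore holds for Ccdc129 at 1 day only, and for Spon2 mainly at 5 days.

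Serpinb10 and Gm9733 were lower at both durations, with a wide spread among mice. Serpinb10 levels at 1 day were 5.80, 7.14 and 9.02 in sham-exposed and 5.52, 6.01 and 8.28 in smoke-exposed mice, and at 5 days 5.92, 6.90 and 7.59 against 4.71, 5.97 and 6.78. Gm9733 levels at 1 day were 5.49, 6.41 and 8.63 in sham-exposed and 4.69, 5.49 and 7.24 in smoke-exposed mice, and at 5 days 5.54, 6.27 and 6.93 against 4.75, 5.48 and 6.12. For both genes 18 of 20 smoke-exposed mice at 1 day, and 19 of 19 at 5 days, were below the sham median, yet the groups overlapped. The Serpinb10 coefficient was -1.05 (SE 0.18) and -0.81 (SE 0.15), or 2.06-fold and 1.76-fold lower, and that of Gm9733 -1.03 (SE 0.24) and -0.79 (SE 0.13), or 2.04-fold and 1.73-fold lower. The spread of Gm9733 among sham-exposed mice was an SD of 0.99 at 1 day and 0.38 at 5 days.

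**Figure D1:**
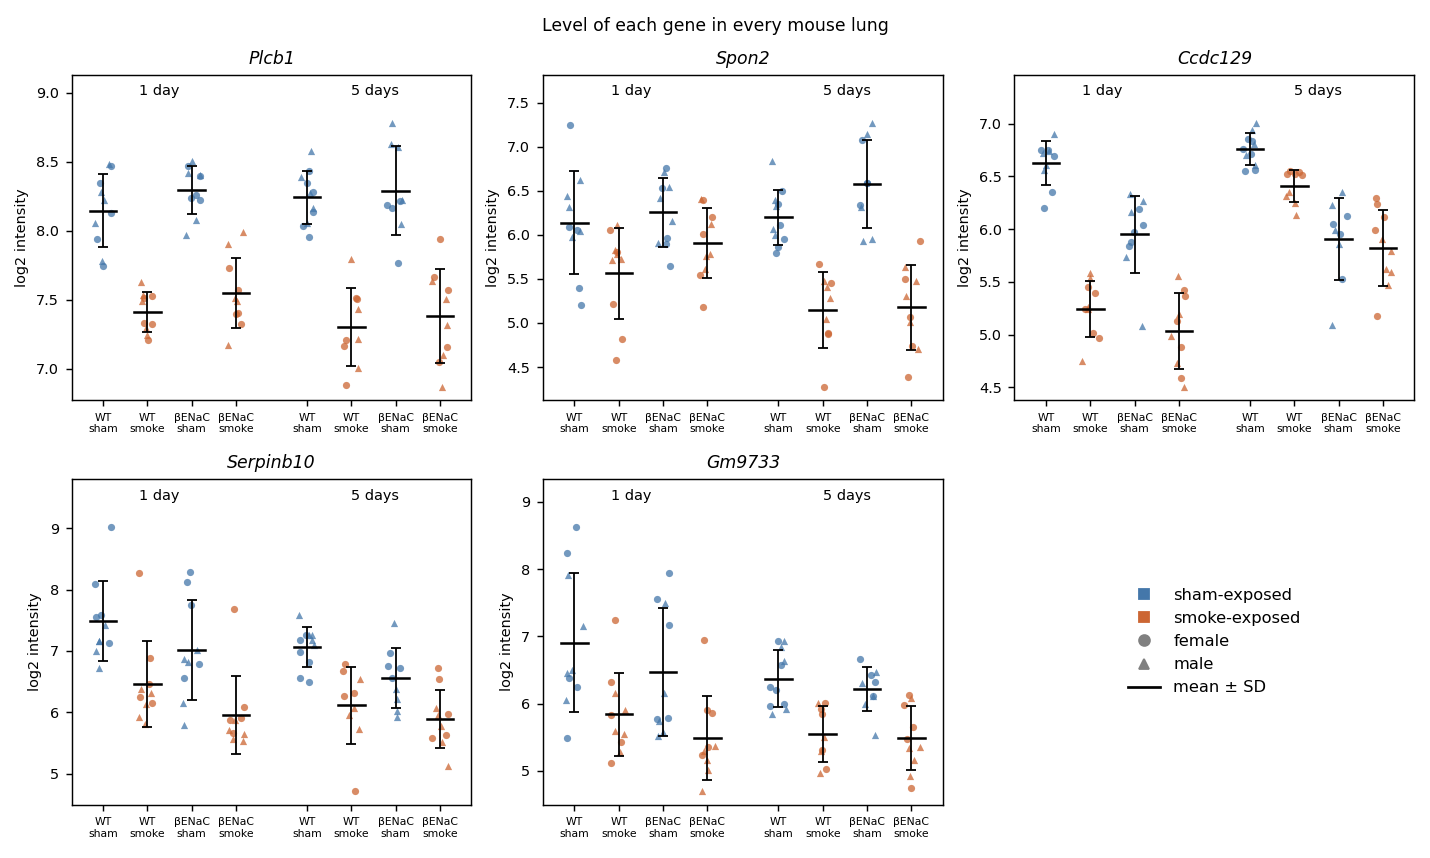
Log2 intensity of each gene (vertical axis) in every mouse, by genotype, exposure and duration (horizontal axis); circles are females, triangles males, blue sham-exposed, orange smoke-exposed, and black bars the mean ± SD. Plcb1 is lower with smoke in both genotypes at both durations, Spon2 mainly at 5 days, and Ccdc129 at 1 day, with lower Ccdc129 in βENaC than in WT sham-exposed mice.

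In the order of exposure coefficients from the most negative, Ccdc129 was first at 1 day, followed by Ifitm6 (-1.14) and Emr4 (-1.12), with Serpinb10 at place 4 and Gm9733 at place 5. Plcb1 was at place 18, between Gpr141 and Lrat (-0.75 and -0.74), and Spon2 at place 126, next to Itgam. At 5 days Spon2 was at place 3, between Chil4 (-1.41) and Rnase2a (-1.15), and Plcb1 at place 11, between Bpifa2 and Ccr3 (-0.91). Serpinb10 and Gm9733 were at places 21 and 23 with Adamts17 (-0.79) between them, and Ccdc129 at place 1047. Each gene differed from the neighbours named here by less than its own standard error, except from Chil4, which lay further below Spon2 at 5 days. No gene had every smoke-exposed mouse below every sham-exposed mouse at 1 day (0%), and 1 gene, none of the 5, did at 5 days (0.00319%).

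The change from 1 to 5 days lay in the smoke-exposed mice for Ccdc129 and Spon2. Mean Ccdc129 was 5.14 ± 0.33 (SD, n = 20) at 1 day and 6.10 ± 0.41 (n = 19) at 5 days with smoke, and 6.29 ± 0.45 and 6.38 ± 0.51 (n = 20 each) with sham. Mean Spon2 was 5.73 ± 0.48 and 5.16 ± 0.44 with smoke, and 6.20 ± 0.49 and 6.37 ± 0.44 with sham. The 5-day minus 1-day difference of the exposure coefficients was 0.93 for Ccdc129, -0.75 for Spon2, 0.23 for Serpinb10, 0.24 for Gm9733 and -0.18 for Plcb1. The last 3 differences are no larger than about 1.7 of their own standard errors (0.23, 0.27 and 0.11). From 1 to 5 days mean Serpinb10 changed by -0.42 (SE 0.20) with sham and by -0.21 (SE 0.20) with smoke. Mean Gm9733 changed by -0.39 (SE 0.24) with sham and by -0.15 (SE 0.17) with smoke, so neither gene rose in smoke-exposed mice. In a fit of duration over all 79 mice, in which 0.297% of genes passed both thresholds, Ccdc129 was the 1 of the 5 that did (0.51, SE 0.086). The smoke-exposed mice that chose the gene are among those compared, so this is no independent test. Duration and the day on which mice were exposed cannot be told apart in any of these comparisons.

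**Figure D2:**
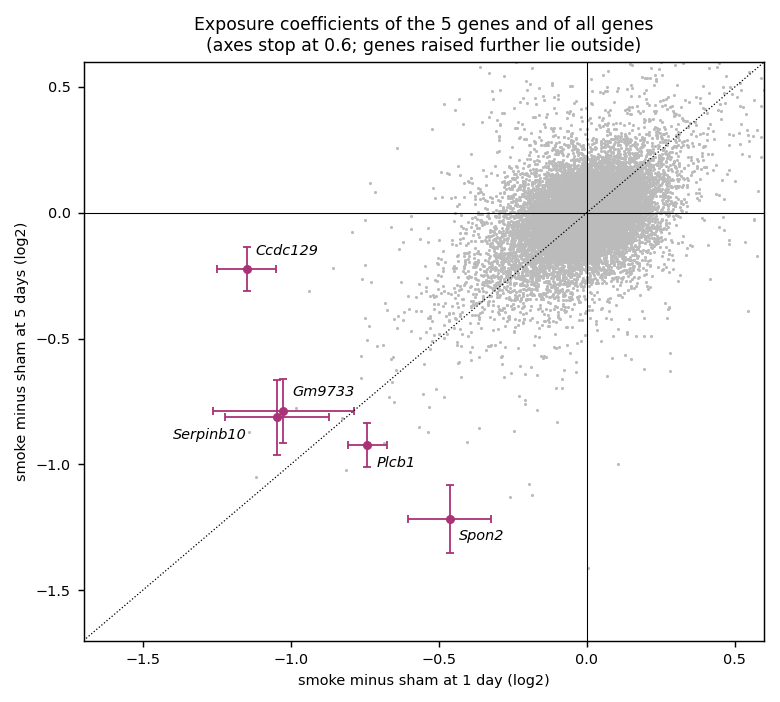
Exposure coefficients (smoke minus sham, log2) at 1 day (horizontal axis) and 5 days (vertical axis) for the 5 genes, with bars of 1 SE, and for all other genes (grey); the dotted line marks equal values. Ccdc129 (-1.15 and -0.22) lies far above the line and Spon2 (-0.46 and -1.22) far below it, while Plcb1, Serpinb10 and Gm9733 lie near it.

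Within the 8 combinations of genotype, sex and duration, smoke was lower than sham in 8 of 8 for Plcb1, Spon2, Serpinb10 and Gm9733, and in 7 of 8 for Ccdc129, whose βENaC females at 5 days gave 0.05. Plcb1 differences ran from -1.17 (βENaC males, 5 days) to -0.61 (βENaC females, 5 days), and its smoke and sham groups did not overlap in 6 of 8 combinations. Spon2 groups did not overlap in the 4 combinations at 5 days and in none at 1 day, with differences of -1.02 to -1.52 at 5 days and -0.29 to -0.70 at 1 day. Ccdc129 groups were separate in 4, Serpinb10 groups in 2 and Gm9733 groups in 1 of 8. Over all genes, the share with every smoke-exposed mouse below every sham-exposed mouse was, at 1 and 5 days, 1.05% and 1.37% in βENaC females, 0.648% and 0.874% in βENaC males, 1.21% and 0.785% in WT females and 2.14% and 2.06% in WT males.

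**Figure D3:**
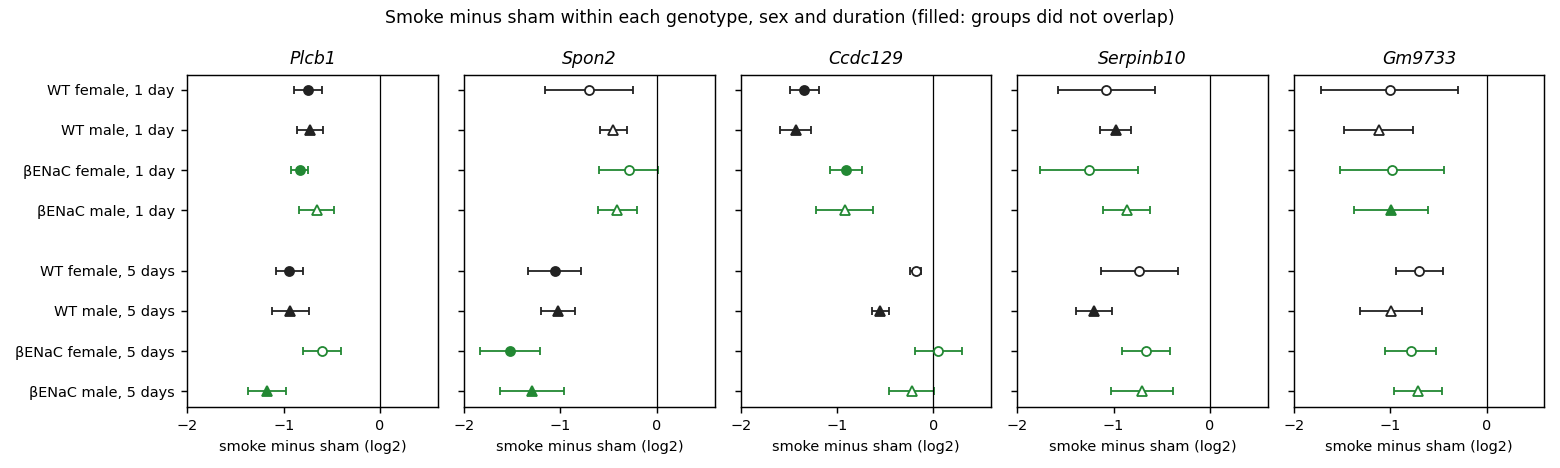
Mean of smoke-exposed minus mean of sham-exposed mice (log2, horizontal axis, bars of 1 SE) in each genotype, sex and duration (vertical axis); black is WT, green βENaC, circles are females, triangles males, and filled symbols mark groups that did not overlap. Spon2 is filled in the 4 combinations at 5 days only, and Ccdc129 is near 0 in βENaC females at 5 days (0.05).

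The second question was whether the genes also differed between WT and βENaC mice, a contrast not used to choose them. Ccdc129 was lower in βENaC mice, by 0.44 (SE 0.10) at 1 day and by 0.71 (SE 0.088) at 5 days. It was the 1 of the 5 genes past both thresholds at each duration, against 1.55% of all genes at 1 day and 2.53% at 5 days (0.418% and 0.654% lower in βENaC). The adjusted p of limma's moderated test was 0.00353 at 1 day and 2.20e-07 at 5 days. Among sham-exposed mice at 5 days the 11 WT levels of Ccdc129 were 6.55 to 7.01 (median 6.76) and the 9 βENaC levels 5.09 to 6.35 (median 5.99), with no overlap, which held for 0.281% of all genes. At 1 day sham-exposed WT mice had 6.20 to 6.90 and βENaC mice 5.08 to 6.33, and these overlapped, as did both smoke-exposed pairs; such separation held for 0.0287% of genes in sham-exposed mice at 1 day and for 0.051% and 0.0797% in smoke-exposed mice at 1 and 5 days. After smoke the WT and βENaC means were 5.25 ± 0.27 and 5.04 ± 0.36 at 1 day (SD, n = 10 each), and 6.41 ± 0.15 (n = 9) and 5.82 ± 0.36 (n = 10) at 5 days. Without the 4 arrays that stood apart, the coefficients were -0.39 (adjusted p of limma's test 0.00365) and -0.63 (8.69e-08). A genotype by duration term for Ccdc129, added after the data were examined, was -0.27 (SE 0.14, adjusted p of limma's test 0.819), so a difference between the durations was not shown; no gene passed limma's test (0%), and 1904 (6.07%) had an unadjusted p below 0.05.

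Of the airway markers measured, Cyp2f2 (a club cell cytochrome P450) was lower in βENaC mice by 0.29 at 1 day (adjusted p of limma's test 1.02e-04, under the fold threshold) and by 0.39 at 5 days (1.01e-06, past both). The club cell list of 3 measured genes (Scgb1a1, Scgb3a1, Cyp2f2) had a score, the mean log2 level, of 12.29 to 12.48 in WT and 12.07 to 12.55 in βENaC mice at 1 day, and 12.28 to 12.61 against 12.01 to 12.63 at 5 days. Scgb1a1, the secretoglobin that defines club cells, was 0.06 and 0.07 lower in βENaC mice, and Scgb3a1 0.35 and 0.17 higher. Goblet cell markers went the other way from Ccdc129: 4 of 5 were higher in βENaC mice past both thresholds at each duration (Muc5ac, Muc5b, Clca1 and Agr2), with a median coefficient of 1.12 at 1 day and 1.51 at 5 days, and the goblet score was 4.64 to 7.23 in WT and 5.50 to 7.56 in βENaC mice at 1 day and 4.53 to 6.63 against 6.05 to 7.81 at 5 days. Lists of other cells differed as well. Of 5 eosinophil markers 1 was higher in βENaC mice past both thresholds at each duration (medians 0.35 and 0.61). Of 5 endothelium markers 3 were lower by the adjusted p of limma's test alone at each duration (medians -0.11 and -0.12). The part of any of these cells in the Ccdc129 difference was not tested.

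Serpinb10 had a genotype coefficient of -0.49 (SE 0.18, adjusted p of limma's test 0.101) at 1 day and -0.36 (SE 0.15, adjusted p 0.131) at 5 days, neither past the threshold. Both turned on single mice. Without a smoke-exposed βENaC female (replicate 5) at 7.69 the 1-day coefficient was -0.56 (adjusted p of limma's test 0.0324). Without a smoke-exposed WT female (replicate 2, 1 of the 4 arrays that stood apart) at 4.71 the 5-day coefficient was -0.45 (adjusted p of limma's test 0.0183). Without all 4 arrays the 5-day coefficient was -0.42 (adjusted p of limma's test 0.0437). For Plcb1 the coefficient was 0.15 (95% interval 0.01 to 0.28) and 0.06 (-0.12 to 0.24), for Spon2 0.23 (-0.06 to 0.51) and 0.20 (-0.08 to 0.47), and for Gm9733 -0.40 (-0.88 to 0.08) and -0.10 (-0.35 to 0.16), with adjusted p of limma's test from 0.235 to 0.775. Without the 4 arrays the 5-day coefficient was 0.0675 for Spon2 and 9e-04 for Plcb1.

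The third question was whether levels differed between the sexes. Serpinb10 was lower in males at 1 day, by 0.76 (SE 0.18, 1.69-fold, adjusted p of limma's moderated test 0.00328), and was the 1 of the 5 genes past both thresholds, against 0.845% of all genes (0.195% lower in males). Its 1-day levels in sham-exposed females were 6.56, 7.67 and 9.02 (lowest, median, highest) and in sham-exposed males 5.80, 6.94 and 7.42, and after smoke 5.66, 6.20 and 8.28 in females and 5.52, 5.84 and 6.38 in males. The highest levels were thus female in both exposures, while the low ends of the ranges overlapped. At 5 days the male minus female coefficient was -0.10 (SE 0.15, adjusted p of limma's test 0.873), and none of the 5 genes passed, against 0.198% of all genes. The sex by duration term of Serpinb10, added after the data were examined, was 0.66 (SE 0.24, unadjusted p of limma's test 0.00668, adjusted 0.202), not past the threshold that 0.654% of genes passed. The 1-day coefficient was -0.49 for Gm9733 (SE 0.24, adjusted p of limma's test 0.212) and 0.27 for Spon2 (SE 0.14, adjusted p 0.255), neither past the threshold.

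A few cell type markers also differed between the sexes at 1 day. Of 7 classical monocyte markers, Ifitm6 was lower in males at 1 day past both thresholds (-0.80), and of 7 nonclassical markers Treml4 (-0.40) and Adgre4, the current symbol of Emr4 (-0.67), were; at 5 days none of the 14 passed. The other nonclassical markers lay near 0, with a median of -0.06 and a highest value of 0.12 over the list, and the classical median was -0.32. Of 8 neutrophil markers 1 was lower in males (Retnlg, -0.62), and of 6 fibroblast markers 2 were higher (Col1a1, 0.50, and Col3a1, 0.51). The classical score was 6.87 to 9.03 (median 7.42) in females and 6.75 to 8.31 (7.10) in males at 1 day. The part of these cells in the Serpinb10 difference was not tested.

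Whether the decrease with smoke itself differed between genotypes or sexes was tested by letting the exposure effect depend on genotype and on sex. None of the 5 genes passed an adjusted p of 0.05 for either term at either duration in limma's test, against 0.00638% of all genes (2 genes) for each term at 1 day and 0% at 5 days, where 1197 (3.82%) and 1085 (3.46%) genes had an unadjusted p below 0.05; at 1 day these were 2189 (6.98%) and 1984 (6.33%). Unadjusted, 1 of the 5 was below 0.05 in 1 of the 4 tests: Ccdc129 at 1 day, with an exposure by genotype coefficient of 0.47, a smaller difference in βENaC mice (SE 0.19, 95% interval 0.08 to 0.86, unadjusted p of limma's test 0.0187, adjusted 0.658). In means, smoke minus sham for Ccdc129 at 1 day was -1.34 and -1.43 in WT females and males and -0.91 and -0.92 in βENaC females and males. For Plcb1 the exposure by genotype interval was -0.28 to 0.26 at 1 day and -0.30 to 0.41 at 5 days, so a genotype difference above 0.41 in size lies outside both. For Gm9733 at 1 day the intervals reached from -0.91 to 1.07 for genotype and from -1.05 to 0.93 for sex, which leaves room for large differences in either direction. Without the 4 arrays that stood apart the exposure by sex coefficient at 5 days went from -0.33 to -0.52 for Ccdc129 and from -0.31 to -0.56 for Serpinb10, with adjusted p of limma's test of 0.709 and 0.951.

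The genes did not vary together as one block among mice of the same group. Likeness was measured as Pearson's r of the deviations from the 16 group means over 79 mice, a description in which all genes share the same RNA and array. Serpinb10 and Gm9733 were the most alike pair (r = 0.69, Spearman's rho 0.68, 0.73 without the 4 arrays that stood apart), and r was 0.77 at 1 day and 0.52 at 5 days. Spon2 had r = 0.39 with Gm9733, 0.36 with Plcb1 and 0.33 with Serpinb10, and -0.42 with Ccdc129. These values differed by duration. At 1 and 5 days r was 0.57 and 0.04 with Gm9733, and 0.49 and 0.10 with Serpinb10. With Plcb1 it was 0.20 and 0.51, and with Ccdc129 -0.37 and -0.49. Plcb1 had -0.27 with Ccdc129, -0.16 with Gm9733 and -0.0031 with Serpinb10.

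The 3 genes most like Gm9733 were F13a1 (r = 0.86), which encodes a coagulation factor subunit made by monocytes, Ifitm6 (0.84) and its chromosomal neighbour Sirpb1b (0.84). Those most like Serpinb10 were Emr4 (0.75), an adhesion receptor of myeloid cells, Gpr141 (0.73) and Ifitm6 (0.71), the last also among those of Gm9733. Those most like Ccdc129 were Cyp2f2 (0.76) and Trp53bp2 (0.74). Without the 4 arrays that stood apart these last were 0.60 and 0.58, so part of their size rested on those mice. Spon2 was most like Cxcl15 (0.70), a chemokine of lung epithelium, Fes (0.66), a tyrosine kinase of myeloid cells, and Glipr2 (0.66). Plcb1 was most like St6galnac3, Emcn (0.56 each) and Piezo2 (0.54), of which Emcn encodes endomucin, a surface protein of endothelium. Over all other genes the median r was -0.03 to 0.03 and the 99th percentile 0.33 for Plcb1, 0.42 for Serpinb10, 0.48 for Gm9733, 0.50 for Spon2 and 0.58 for Ccdc129. The companions did not share the exposure coefficient in every case: F13a1 had -0.37 and -0.08 at 1 and 5 days, Cyp2f2 -0.14 and -0.03, and Cxcl15 -0.04 and -0.22, whereas Emr4 had -1.12 and -1.05 and Ifitm6 -1.14 and -0.87.

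**Figure D4:**
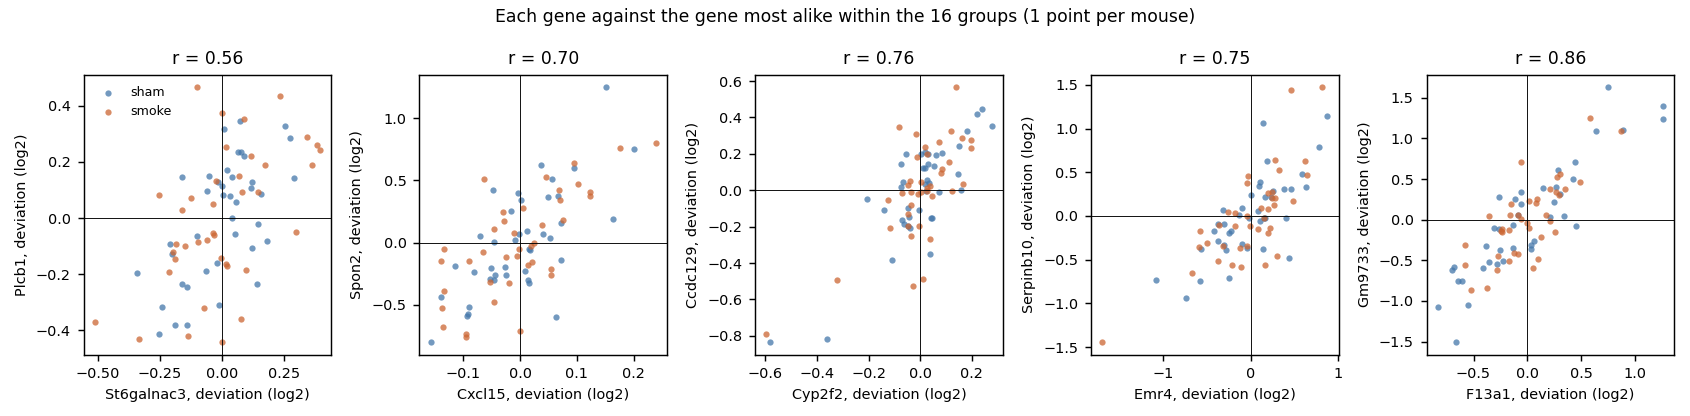
Deviation of each gene from its group mean (log2, vertical axis) against that of the named gene most like it (log2, horizontal axis), 1 point per mouse for 79 mice, blue sham-exposed and orange smoke-exposed. Gm9733 follows F13a1 most closely (r = 0.86), and the Ccdc129 panel has a few mice far to the lower left (r = 0.76, 0.60 without the 4 arrays that stood apart).

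The genes were also set against the scores of 19 cell type marker lists, some of which hold genes just named: Cyp2f2 is 1 of the 3 club cell markers, F13a1 and Ifitm6 are classical and Emr4 (Adgre4) is a nonclassical monocyte marker, so the scores are not separate evidence from those genes. Gm9733 had r = 0.87 with the classical monocyte score and 0.72 with the neutrophil score, Serpinb10 0.73 and 0.68 with the classical and nonclassical monocyte scores, and Spon2 0.57 with the classical monocyte score. With epithelial scores Spon2 had -0.38 (club), -0.43 (ciliated) and 0.12 (alveolar type 2), although Cxcl15 was the gene most like it. Ccdc129 had 0.72 with the club cell, 0.63 with the ciliated cell and 0.58 with the endothelium score (0.56, 0.46 and 0.40 without the 4 arrays that stood apart), and -0.55 with the eosinophil score (-0.29 without them). Plcb1 had no score above 0.27 and was lowest with the club cell score (-0.42); with the endothelium score it had -0.0955, although Emcn was among the genes most like it.

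**Figure D5:**
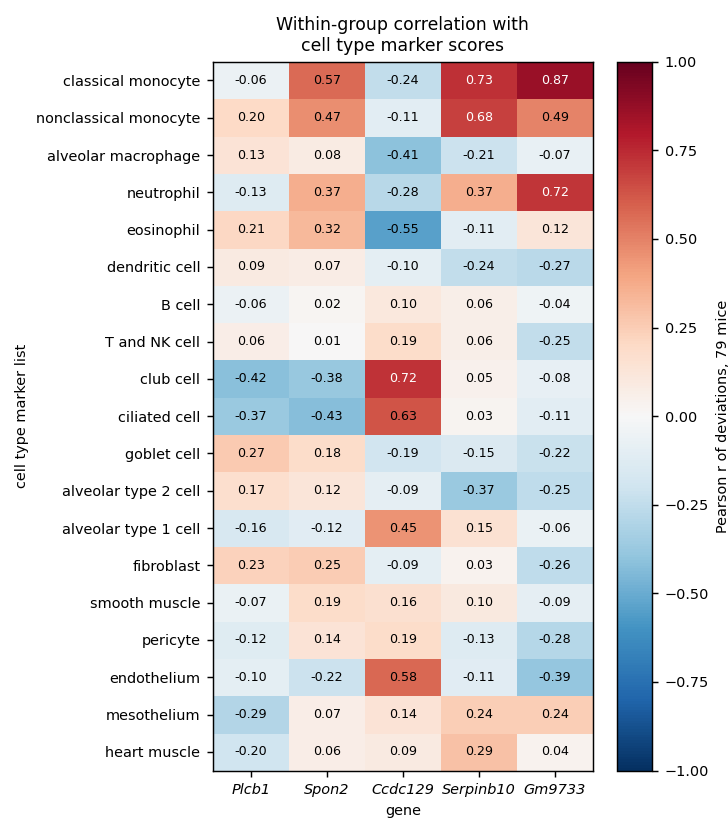
Pearson's r over 79 mice between the within-group deviations of each gene (columns) and of the score of each cell type marker list (rows), with the value in each cell and red for positive, blue for negative. Serpinb10 and Gm9733 are highest with classical monocytes (0.73 and 0.87), and Ccdc129 with club cells (0.72).

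Markers of several cell types, monocytes among them, also moved with exposure. Of the 7 classical markers, 4 were lower with smoke past both thresholds at 1 day (Ly6c2, Ifitm6 and Plac8 among them) and 3 at 5 days (Ccr2, Ifitm6 and Plac8), and the median coefficient was -0.44 and -0.37 against medians near 0 over all genes. Of the 7 nonclassical markers, 3 and 4 were lower, and the median was -0.25 and -0.49. Of 8 neutrophil markers 1 was lower past both thresholds at 1 day and 0 at 5 days, with medians of -0.45 and -0.26. None of 5 B cell markers passed, with medians of -0.31 and -0.26. At 5 days 1 of 5 eosinophil and 1 of 8 alveolar macrophage markers were lower past both thresholds. Of 5 goblet cell markers 1 was lower and 1 higher at 5 days. The classical score ran from 6.89 to 9.03 with sham and 6.75 to 7.90 with smoke at 1 day, and from 7.03 to 7.85 and 6.46 to 7.39 at 5 days. None of the 3 club cell or 5 ciliated cell markers was lower past both thresholds at either duration, and Scgb3a1 was higher at 5 days (0.59). At 5 days 3 of 6 fibroblast markers (Col1a1, Col3a1 and Tcf21; median -0.32) and 2 of 6 dendritic cell markers (Xcr1 and Siglech; median -0.25) were lower past both thresholds, against none of either list at 1 day. The fibroblast score at 5 days was 9.46 to 10.29 with sham and 9.02 to 9.95 with smoke. Dnah5, a ciliary motor protein, was 0.38 lower at 1 day, just under the fold threshold. The part of any of these cells in the decreases of Serpinb10, Gm9733, Spon2 and Ccdc129 was not tested.

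Of 107 other genes in 8 lists of the pathways and families around the 5, 5 (4.67%) passed both thresholds for exposure at 1 day and 4 (3.74%) at 5 days, against 1.08% and 1.16% of all genes. The lists were chosen with earlier results of these data known, so these shares are a description and no independent test. None of 13 other phospholipase C genes was called for exposure at 1 or 5 days, and their coefficients ran from -0.24 to 0.21 and from -0.33 to 0.31. Plcb4, next to Plcb1 on its chromosome, had 0.16 (adjusted p of limma's test 0.0354) and 0.20 (0.0817), opposite in sign to Plcb1 and under the fold threshold. Of 20 measured Gq-coupled receptors 1 was called, Bdkrb2, the bradykinin B2 receptor, higher by 0.52 and 0.62 (SE 0.091 and 0.082). Of 20 genes from Gq to calcium and protein kinase C 1 was called, Prkcb, a protein kinase C of leukocytes among other cells, lower by 0.47 and 0.40 (SE 0.095 and 0.12). None of 7 IP3 receptor binding proteins, the group nearest to Ccdc129, was called.

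On the side of Spon2, none of 8 spondin and thrombospondin repeat genes was called, with medians of -0.01 and -0.02. Of 5 integrin subunits that bind spondin 2, Itgam, the α chain of the leukocyte integrin Mac-1, was lower by 0.46 (SE 0.14) and 0.43 (SE 0.13), and Itga4 was lower by 0.44 (SE 0.058) at 1 day and, under the fold threshold, had -0.38 (SE 0.081) at 5 days. None of 26 other clade B serpins was called, and the cluster neighbours of Serpinb10 had coefficients of 0.04 and -0.09 (Serpinb2) and 0.13 and -0.15 (Serpinb8). Of 8 measured SIRP genes and partners, Sirpb1b was lower by 0.51 (SE 0.16) at 1 day and Gm5150 by 0.46 (SE 0.11) at 5 days; both lie beside Gm9733. Sirpb1a, the nearest neighbour, had -0.37 and -0.21, not past the threshold. Whether probes of these neighbours share signal with Gm9733 could not be checked without probe sequences, so its values are uncertain to that extent. The median coefficient of the SIRP list was -0.27 and -0.17 against medians near 0 over all genes.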

How the data were processed

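The authors deposited log2 intensities made with Affymetrix Expression Console 1.4 and Partek 6.6: background was corrected by RMA, probes were adjusted for GC content and sequence, arrays were quantile normalized and probes summarized per gene by median polish, after they left out 1 mislabelled array. These values compress low signals, and quantile normalization forces one distribution on all arrays. Values were used as deposited. Of 31350 rows, 21837 had a symbol, 2537 from the study's tables and 19300 from RefSeq (GRCm38.p6). Groups came from titles and characteristics. Models of exposure, genotype and sex, coded ± so that coefficients are averages over the other factors, were fitted per duration in R 4.3.3 with limma 3.58.1, with Benjamini-Hochberg adjustment over all rows. Interaction terms were called on adjusted p alone. Genes other than the 5 were named by fixed rules: the 3 most alike, those next in order, and called pathway list genes, some of which are not reported here; others, such as chromosomal neighbours and markers, were named after their values were seen. The members, lists and rules were chosen with earlier results of these data known. Alternatives covered the test, scaling, filter, array weights, prior, block, joint fit, fold threshold and each mouse left out. On simulated data with 200 changed genes, 93% to 97% of log2 changes of 0.5 were recovered for exposure, genotype and sex. At 1 day the median SE of the exposure coefficient over all genes was 0.050. It was 0.066 for Plcb1, 0.10 for Ccdc129, 0.14 for Spon2, 0.18 for Serpinb10 and 0.24 for Gm9733, so these rates are not taken to hold for the 5 genes. Figures used matplotlib 3.10.9.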

Additional observations from a re-analysis of the deposited data

Results flagged for a closer look

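In 5 of 80 sets of 4 to 6 mice (16 groups for each of 5 genes) the highest or lowest mouse lay far from the rest of its group, and chance alone gives about 1 in 20 such sets. Plcb1 in a βENaC sham-exposed female at 5 days (replicate 3) was 7.77, against 8.16 to 8.21 in the other mice of the group. Spon2 in a WT smoke-exposed male at 1 day (replicate 2) was 6.11, against 5.71 to 5.83. Ccdc129 in a βENaC smoke-exposed female at 5 days (replicate 3) was 5.18, against 6.00 to 6.29. Serpinb10 in a βENaC smoke-exposed female at 1 day (replicate 5) was 7.69, against 5.66 to 6.09, and in a WT smoke-exposed female at 5 days (replicate 2) it was 4.71, against 6.27 to 6.78. The Ccdc129 mouse and the last Serpinb10 mouse are among the 4 whose arrays stood apart.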

How the results depend on the processing

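Across the alternatives, the exposure coefficients of the 5 genes kept their sign in every setting run and moved by less than the spread within groups. With a 1.5-fold threshold 0 genes in place of 1 passed for genotype at 1 day (Ccdc129) and 0 for duration. For genotype at 5 days 2 passed with array weights (Serpinb10 at -0.40, adjusted p 0.0486 in limma's test) and 2 without the 4 arrays that stood apart, an alternative chosen after seeing the data. With each mouse left out, 1 to 2 genes passed for genotype at 1 day and 1 to 2 at 5 days. The genotype calls of Ccdc129 and the 1-day sex call of Serpinb10 held under all alternatives run except the 1.5-fold threshold for Ccdc129 at 1 day. Signs reversed only for coefficients near 0 that passed no threshold: Ccdc129 for sex at 1 day (-0.0174 with quantile normalization, -0.0186 to 0.0716 with a mouse left out) and Gm9733 for exposure by sex at 1 day (0.12 with array weights, 0.0858 without the 4 arrays, -0.24 to 0.13 with a mouse left out). With a mouse left out the exposure by genotype coefficient ranged from -0.0565 to 0.0393 at 1 day and -0.0115 to 0.13 at 5 days for Plcb1, from -0.20 to 0.14 for Serpinb10 and from -0.10 to 0.27 for Gm9733 at 1 day. The exposure by sex coefficient at 1 day ranged from -0.0764 to 0.16 for Spon2 and from -0.16 to 0.0078 for Ccdc129. Of the pathway list genes, 5 were called for exposure at 1 day and 4 at 5 days, against 24 and 18 with no fold threshold and 0 and 1 at 1.5-fold. The 1-day count was 3 without a WT sham-exposed female (replicate 2) or a WT sham-exposed male (replicate 1), and the 5-day count was 2 without a βENaC sham-exposed male (replicate 3). The cause of these differences was not tested. A replicate block changed no call (Ccdc129 for genotype -0.44 at 1 day and -0.72 at 5 days). Mice with the same number in different groups had a mean correlation of deviations of 0.023 at 1 day and 0 at 5 days. Single pairs ran from -0.276 to 0.465 and from -0.267 to 0.538 (different numbers -0.392 to 0.348 and -0.429 to 0.306). Since both means were below 0.1, the numbers were not taken to pair mice. Other rows of the same gene were not tried, since each gene had 1 row. Signal over background was not analysed here, so low levels have no stated limit.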
